A study of Mus musculus with 2 samples.

Results

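Erythropoietin is the hormone that keeps red cell precursors alive, and 10 genes of its signalling route were followed in mouse fetal liver. The route comprised the hormone gene Epo, its receptor gene Epor, the receptor-bound kinase gene Jak2, the transcription factor genes Stat5a and Stat5b, and 5 genes further along it. These were Bcl2l1, Pim1, Cish, Socs2 and Sh2b3. The members were the rows of the deposited gene and transcript tables whose Ensembl identifier belongs to one of those symbols. All 10 were found among the 43346 Ensembl genes of the gene tables, with 51 transcripts. The samples were 2 biological replicates of 1 group, liver of B6NCrl mouse embryos at embryonic day 16.5. Livers of male and female embryos were pooled, 41 embryos in replicate 2 and an unstated number in replicate 1, and 1 donor identifier is given for both replicates. The embryos were described as healthy, with no treatment or engineered allele named. Libraries were made from 10 ng of RNA longer than 200 nt and carried ERCC spike-in RNA. No second condition was sampled, so the design asks how abundant each gene was and how closely both libraries agreed, and it allows no test between conditions.

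Erythropoietin binds a receptor that has no kinase activity of its own and works through JAK2, a kinase held on its inner part. Active JAK2 phosphorylates the receptor, which draws in STAT5, and STAT5 moves to the nucleus and switches on genes for survival and growth. Some of these genes, such as Cish and Socs2, encode proteins that then act back on receptor signalling. In the fetus the liver is the main organ of red cell formation, and its hepatocytes are a known source of the hormone before the kidney takes over.

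Promoter sequence of 2 members is shown because it holds short DNA words known to be recognised by STAT5 and by regulators of the receptor gene. RefSeq windows of GRCm38.p6, from 250 bases before to 50 after a start site, were present for 9 members, all but Socs2, as 14 windows. The STAT5 word TTCNNNGAA, which reads the same on both strands, was present in 1 member window, that of Cish, which held it 2 times. Of all 32851 promoter windows 8.30% held the word at least once and 0.457% at least 2 times. The Cish stretch lies at chr9:107296654-107296683 on the plus strand, with the matches in capitals, the first of them starting at the RefSeq start site and 2 nt between them.
Cish: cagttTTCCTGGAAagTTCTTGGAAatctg
The Epor stretch covers the 250 bases before the RefSeq start site, chr9:21963577-21963826 on the minus strand. Its capitals mark 2 copies of CACCC, the core of the word bound by KLF1, and TTATCT, the opposite strand of the GATA word AGATAA bound by GATA1. The GATA word begins 54 nt before the start site.
Epor: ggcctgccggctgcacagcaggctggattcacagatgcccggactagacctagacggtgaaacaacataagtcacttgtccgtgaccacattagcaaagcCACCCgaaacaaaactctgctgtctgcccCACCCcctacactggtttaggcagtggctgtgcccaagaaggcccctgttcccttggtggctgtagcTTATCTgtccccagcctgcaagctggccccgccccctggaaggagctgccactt
A GATA word (AGATAA in any form with A or T first and A or G last, both strands) was present in 3 of the 14 member windows (21.4%), one each of Bcl2l1, Epo and Epor, and in 29.8% of all windows. CACCC was present in 10 of the 14 member windows (71.4%), from 8 members, and in 57.5% of all windows. Of all windows 25.7% held CACCC at least 2 times, as that of Epor did. Both words were present in the same 3 windows of Bcl2l1, Epo and Epor (21.4%) and in 14.9% of all windows. The Bcl2l1 window that held them, chr2:152828440-152828739, is not the one at the start of Bcl2l1-201, the gene's most abundant transcript. The window at that start, chr2:152831679-152831978, held neither word, and the remaining Bcl2l1 window held no GATA word. A match describes the letters of a window and is no measure of binding.

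Levels are given as TPM, the abundance of a gene's transcripts relative to all transcripts of its library, which is per length and so can be set side by side between genes. Expected counts, the estimated number of reads of a gene, show the depth behind each level. They summed to 44477766 in replicate 1 and 48820712 in replicate 2. From the highest level to the lowest, the members ran from Bcl2l1 through Epor, Pim1, Stat5b, Cish, Stat5a, Sh2b3, Jak2 and Socs2 to Epo. The ranges of neighbours in that order did not overlap between the libraries, except for Sh2b3 with Jak2 and Jak2 with Socs2, which did not differ beyond their spread. All members but Epo reached 1 TPM in both libraries, 9 of 10, where 27.9% of all Ensembl genes did. At 10 TPM there were 4 members, and the share of all genes at that level was not computed. With TPM rescaled without spike-ins and globins, levels were 1.64-fold higher and Epo reached 1 TPM too, 10 of 10. The median of the members was 8.22 TPM ± 0.08 (SD, n = 2), while the median over genes at 1 TPM or more was 9.94 TPM in replicate 1 and 10.27 TPM in replicate 2. In bulk tissue, fewer cells of a type and less RNA per cell cannot be told apart in any of these levels.

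**Figure D1:**
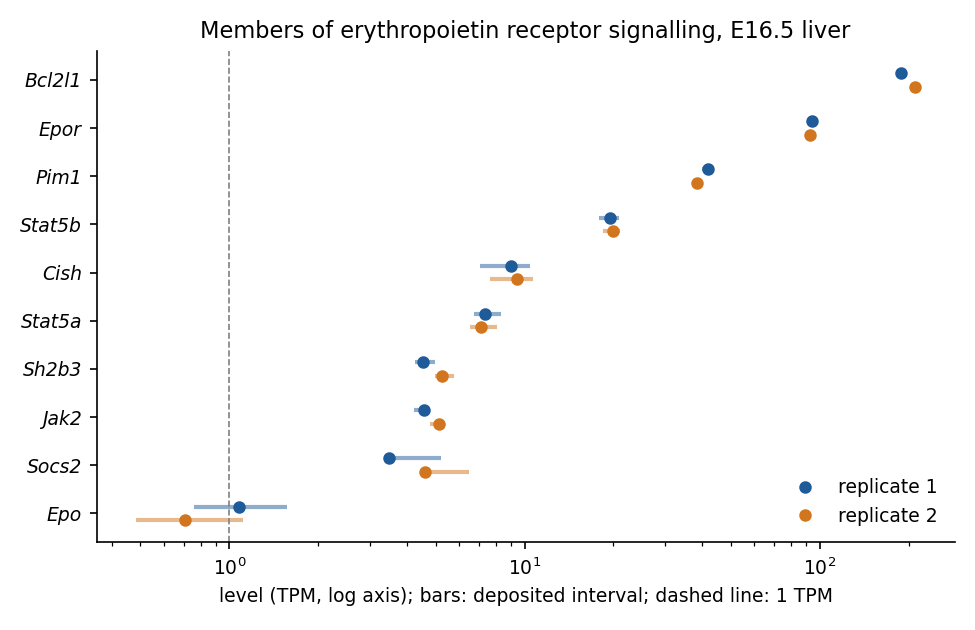
Level of each member in TPM (horizontal log axis) in replicate 1 (blue) and replicate 2 (orange), with the deposited TPM interval, whose level is not stated, as a bar and 1 TPM as a dashed line. The members span from Epo, at 1.08 and 0.71 TPM, to Bcl2l1, at 187.8 and 210.39 TPM, and the points of both libraries lie close together for most of them.

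Epo, which encodes the hormone, stood at 1.08 TPM in replicate 1 and 0.71 TPM in replicate 2, the lowest level of the members. These levels rest on 28.0 expected counts, with an exact Poisson 95% interval of 18.6 to 40.5, and on 21.01, with an interval of 13.0 to 32.1. The 2 counting intervals overlapped, as did the deposited TPM intervals, so a difference between the libraries was not detectable at this depth. Counting intervals cover counting error only, since the reads carried no molecular identifiers. The gene lies on chromosome 5 from 137483020 to 137533242 on the minus strand (mm10, GENCODE M21). That span is long because the transcript Epo-202 begins in an exon of 104 nt within the neighbouring gene Gnb2, which encodes a G protein subunit. Epo-201 held 1.08 and 0.52 TPM, and Epo-202 held 0 and 0.19 TPM. Both carry the same coding sequence of 576 nt. Gnb2 stood at 112.22 and 108.59 TPM, and 7 of the 756 windows of 100 nt in Epo-202 were identical to Gnb2 sequence. Whether reads of Gnb2 entered the Epo-202 estimate was not tested.

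Epor, which encodes the receptor, stood at 93.9 and 92.55 TPM, on 6839 and 7283 expected counts. Both libraries were nearly level, and the gene ranked above 91.5% of genes at 1 TPM or more. Epor lies on chromosome 9 from 21958897 to 21963506 on the minus strand and had a single transcript in the tables, Epor-201, with 8 exons and 1521 coding nt, stop codon not counted here or below. Receptor RNA exceeded hormone RNA 86.9-fold in replicate 1 and 130-fold in replicate 2, on the TPM scale. The Epo levels in these ratios rest on 28.0 and 21.01 expected counts, whose counting intervals overlapped. Both ratios and the gap between them carry that limit. The nearest gene, Swsap1, a DNA repair gene 632 nt away on the opposite strand, stood at 2.05 and 1.79 TPM.

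Jak2, which encodes the kinase that the receptor depends on, stood at 4.56 and 5.15 TPM, on 943 and 1146 expected counts. Both values were far under those of Epor, and the ratio of Epor to Jak2 was 20.6 in replicate 1 and 18.0 in replicate 2, on the TPM scale. Jak2 was the least abundant gene of its kinase family by mean TPM, although its level was close to those of Jak3 and Tyk2. Jak1, which serves interferon and many interleukin receptors, stood at 42.46 and 42.15 TPM. Tyk2, a partner of interferon and interleukin receptors, stood at 5.7 and 6.46 TPM, and Jak3, the partner of the common gamma chain, at 5.02 and 5.49 TPM. The ranges of Jak2 and Jak3 overlapped, so their order does not exceed the spread, and Tyk2 lay above both in each library. Jak2 made up 8.29% ± 0.56 (SD, n = 2) of the TPM of the 4 kinases, and Jak1 72.3% ± 1.70.

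Stat5b, one of 2 near copies that encode STAT5, stood at 19.49 and 19.88 TPM, on 3704 and 4132 expected counts. Stat5a, the other copy, stood at 7.33 and 7.14 TPM, on 951 and 988 expected counts. Stat5b was thus 2.66 times Stat5a in replicate 1 and 2.78 times in replicate 2, and their ranges did not overlap. Stat5a made up 26.9% ± 0.64 (SD, n = 2) of the TPM of the pair and 19.9% ± 0.80 of its expected counts, the lower figure because counts are not divided by transcript length and the Stat5b transcripts are longer. Both genes lie on chromosome 11, Stat5b from 100780731 to 100850724 on the minus strand and Stat5a from 100859351 to 100885169 on the plus strand. They point away from each other, with 8626 nt between them.

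The counts of each STAT5 gene were not whole in either library, but their sum was, 4655 in replicate 1 and 5120 in replicate 2, within 0.01. The quantification thus assigned fractions of reads to each of them. The sequence that the pair shares was measured. Their coding sequences matched at 2125 of 2343 aligned bases (90.7%), and the longest identical run, 324 nt, covered positions 571 to 894 of both coding sequences. Of the windows of 100 nt, 265 were identical between Stat5a-202 and Stat5b-201, 7.28% of the former and 5.34% of the latter. Both edges of the run are shown, 60 bases each from the GENCODE M21 transcripts (GRCm38), with capitals at the base that differs just outside the run.
Stat5a-202, left edge: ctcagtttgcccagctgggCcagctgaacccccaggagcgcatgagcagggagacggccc
Stat5b-201, left edge: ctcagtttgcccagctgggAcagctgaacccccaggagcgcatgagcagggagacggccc
Stat5a-202, right edge: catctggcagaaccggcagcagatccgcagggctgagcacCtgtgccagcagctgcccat
Stat5b-201, right edge: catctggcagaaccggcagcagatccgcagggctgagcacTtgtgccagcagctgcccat
A read that lies wholly between those bases cannot tell the 2 genes apart, and the share of Stat5a carries that limit.

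Within the STAT family, Stat3, which is activated by interleukin 6 type cytokines, was the highest, at 28.7 and 34.21 TPM. Stat5b came next, and its range did not overlap that of Stat3. Stat6, which acts after interleukin 4, stood at 13.02 and 15.45 TPM. Stat5a was followed by Stat2, an interferon factor at 5.27 and 5.98 TPM, and Stat4, which acts after interleukin 12, was the lowest at 1.07 and 1.41 TPM. Stat5b and Stat5a made up 20.3% ± 1.06 and 7.49% ± 0.63 (SD, n = 2) of the family's TPM. An exon overlap of 72 nt joins Stat5a to Stat3 on the opposite strand, and no strand-specific step is named.

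Bcl2l1, which encodes the survival protein BCL-XL and is a STAT5 target in erythroblasts, was the most abundant member. It stood at 187.8 TPM in replicate 1 and 210.39 TPM in replicate 2, on 17739 and 21396 expected counts, and lies on chromosome 2 from 152780668 to 152831728 on the minus strand. Replicate 2 was the higher, and the deposited intervals of the libraries did not overlap. Bcl2l1 alone carried 50.4% and 53.5% of the TPM of the 10 members. Of the 7 survival genes of the BCL2 family it carried 93.5% ± 0.17 (SD, n = 2). Mcl1, a short-lived survival protein of progenitor cells, stood at 9.58 and 12.4 TPM, so that Bcl2l1 was 19.6 and 17.0 times as abundant. The 5 other survival genes were near or below 1 TPM. Bcl2a1b stood at 1.25 and 1.27 TPM, Bcl2 at 0.68 and 0.84 TPM and Bcl2l2 at 0.57 and 0.37 TPM. Bcl2a1a stood at 0.42 and 0.07 TPM and Bcl2a1d at 0.39 and 0.06 TPM, and these near-identical Bcl2a1 copies share reads, so their split is uncertain.

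The death-promoting genes of the BCL2 family were lower than Bcl2l1. Of 11 listed, 9 reached 1 TPM in both libraries, where 27.9% of all Ensembl genes did. At 10 TPM there were 3, and the share of all genes at that level was not computed. Bax, which opens the mitochondrial membrane, stood at 51.55 and 50.85 TPM, and Bcl2l1 exceeded it 3.64-fold and 4.14-fold. Bad and Bid, which carry death signals to that membrane, stood at 21.96 and 20.46 TPM and at 18.96 and 17.64 TPM. Hrk, a death-promoting gene best known from neurons, was listed at 0 in both libraries.

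Pim1, a survival kinase gene induced through STAT5, stood at 41.7 and 38.45 TPM, on 4457 and 4440 expected counts. It lies on chromosome 17 from 29490753 to 29496112 on the plus strand. Pim1 was the highest of its 3 kinase genes, ahead of Pim3 at 15.87 and 21.31 TPM and Pim2 at 3.06 and 2.74 TPM, with no overlap of ranges. Its share of the family's TPM was 65.1% ± 5.13 (SD, n = 2). The antisense gene Gm26885 overlaps 488 nt of Pim1 exons and stood at 0.88 and 0.82 TPM. Of the 2599 windows in Pim1-201, 175 matched that gene on the opposite strand, and the Pim1 counts were not whole.

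Cish and Socs2 encode proteins of the SOCS family, induced by STAT5 and acting back on cytokine receptors. Cish stood at 9.0 and 9.42 TPM, on 528 and 678 expected counts, at chromosome 9 from 107296026 to 107302784 on the plus strand. Socs2 stood at 3.47 and 4.61 TPM, on 246 and 329 expected counts, at chromosome 10 from 95385362 to 95417180 on the minus strand. Replicate 2 was the higher for both, and the ratio of Cish to Socs2 was 2.59 and 2.04. Socs6, a family member linked to insulin and KIT signalling, stood at 10.18 and 9.54 TPM and was the highest of the 8 genes. Cish followed at 27.2% ± 0.04 (SD, n = 2) of the family's TPM, and its range did not overlap that of Socs6. The deposited intervals of Cish, 7.07 to 10.45 TPM and 7.64 to 10.69 TPM, nevertheless reached the Socs6 values. Socs3, a feedback inhibitor of interleukin 6 signalling, stood at 5.4 and 5.82 TPM, above Socs2 in both libraries. Socs1, an inhibitor of interferon signalling, stood at 1.42 and 1.55 TPM. Socs4, Socs5 and Socs7, whose roles are less settled, ranged from 0.89 to 1.56 TPM.

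Sh2b3 encodes LNK, an adaptor that binds JAK2 and dampens receptor signalling in blood cells. It stood at 4.53 and 5.24 TPM, on 800 and 1001 expected counts, at chromosome 5 from 121815488 to 121837646 on the minus strand. Replicate 2 was the higher, and the deposited intervals did not overlap. Its paralog Sh2b1, an adaptor of insulin, growth hormone and leptin receptors, stood at 10.11 and 10.58 TPM, and Sh2b2, also called APS, at 1.64 and 1.55 TPM. The 3 ranges did not overlap, and Sh2b3 made up 29.0% ± 1.66 (SD, n = 2) of the TPM of the family.

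**Figure D2:**
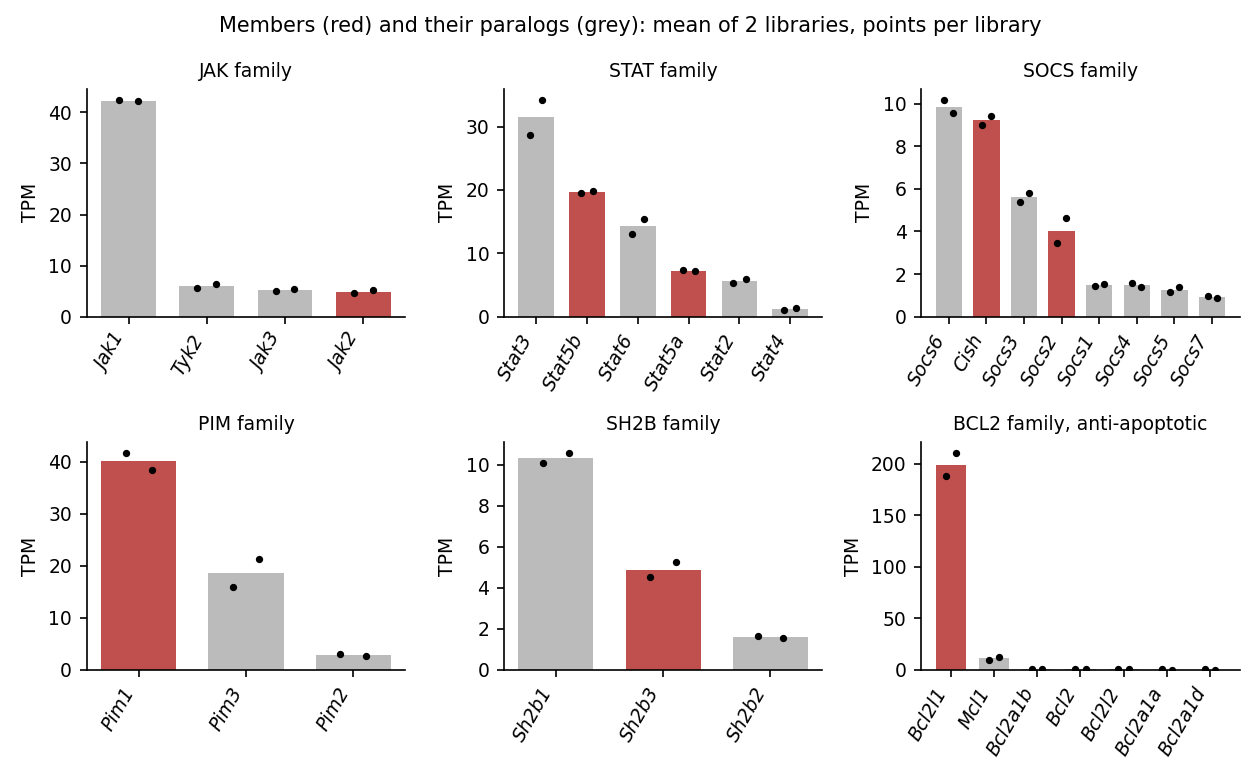
Level in TPM (vertical axis, linear, from 0, a scale of its own in each panel) of genes of 6 families (STAT family shown in part), as bars for the mean of 2 libraries and points for each library, with members of the erythropoietin route in red. Bcl2l1 and Pim1 stand highest in their families, Jak2 lowest by its mean, and Stat5b, Cish and Sh2b3 second.

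The transcript tables showed which models carried these levels. Of the 51 transcripts, 14 were at 0 in both libraries. Among the 8 members with several transcripts, 7 had the same leading transcript, the one with the highest TPM, in both libraries. Over all genes with several transcripts, the leading transcript differed between libraries for 5.11% of those at 10 TPM or more and for 8.91% of those at 1 TPM or more. The members numbered 0 of 2 and 1 of 7 in these classes, too few to set apart from the background. Bcl2l1-201 stood at 106.8 and 125.51 TPM and Bcl2l1-202 at 60.36 and 61.78 TPM. They differ in the first exon, which is noncoding, and share the coding sequence of 699 nt, so that together they held 89.0% ± 0.01 (SD, n = 2) of the gene. Compared with all 9 models of the gene, 117 of 2318 windows were found only in Bcl2l1-201 and 0 of 2469 only in Bcl2l1-202. Windows that separate these models from each other were not counted, so how certain their split is was not measured. The other models at 1 TPM or more in a library ranged from 0.57 TPM for Bcl2l1-208 to 9.4 TPM for Bcl2l1-207, with Bcl2l1-203, Bcl2l1-204 and Bcl2l1-205 between them.

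Jak2 was the member whose leading transcript changed. Jak2-202 stood at 3.56 TPM in replicate 1 and 2.53 TPM in replicate 2, and Jak2-201 at 1.0 and 2.62 TPM. The share of Jak2-202 was thus 78.1% in one library and 49.1% in the other. Both models carry the same coding sequence of 3396 nt and differ by an 83 nt noncoding exon. Only 180 of 4931 windows in Jak2-202 and 97 of 4848 in Jak2-201 tell them apart, and for each model the deposited intervals of the libraries overlapped. With the deposited posterior mean TPM, a second estimate of the same quantity, Jak2-202 led in both libraries.

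Most of the Sh2b3 level lay on a model annotated as subject to nonsense-mediated decay, the pathway that removes RNA with an early stop codon. This model, Sh2b3-205, stood at 3.83 and 4.71 TPM, which was 84.5% and 89.9% of the gene. Sh2b3-202, with the full coding sequence of 1644 nt, stood at 0.7 and 0.53 TPM, and the 4 other models were at 0. Sh2b3-205 lacks a noncoding exon of 88 nt and keeps an intron of 80 nt at chr5:121818680-121818759 (mm10, minus strand). It is still the longer model, at 4313 nt beside 4195 nt for Sh2b3-202, so other exon sequence differs too. The intron is shown because it sets the reading frame of the leading model, with its first and last bases, the usual GT and AG, in capitals.
Sh2b3 intron: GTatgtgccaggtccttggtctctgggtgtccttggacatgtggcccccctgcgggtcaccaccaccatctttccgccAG
Its length leaves a remainder of 2 when divided by 3, and after 93 further coding nt the frame ends in the stop codon TGA, 291 nt before the last exon junction. Compared with all models of the gene, 335 of 4214 windows were found only in Sh2b3-205 and 107 of 4096 only in Sh2b3-202. Windows that separate these models from each other, and those of the intron, were not counted apart. Whether the retained intron reflects unspliced RNA was not tested. Among genes at 1 TPM or more with several transcripts, the same model led in both libraries and was not annotated as protein coding for 8.36%, Sh2b3 among them.

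The Cish level was spread over models that are mostly partial. Cish-204 stood at 3.29 and 3.62 TPM, Cish-205 at 2.71 and 2.76 TPM and Cish-203 at 2.43 and 2.12 TPM. Cish-205 and Cish-203 are fragments of 371 and 411 nt, so few reads weigh much on the TPM scale. The level of the gene, its place in the order, its share of the family and its ratio to Socs2 carry the same limit. By expected counts Cish-204 held 69.3% and 64.2% of the gene, followed by the noncoding Cish-202, of 4697 nt, at 16.1% and 23.5%. Cish-202 stood at 0.44 and 0.76 TPM. Cish-204 lacks a coding exon of 221 nt but has the longest 3′ end, while Cish-201, the model with the full coding sequence of 771 nt, stood at 0.12 and 0.15 TPM and ends 797 nt earlier. No model in the tables joins that exon to the longest 3′ end, so the split among models may not describe the real transcripts. On the opposite strand lie Gm17040, at 0.25 and 0.14 TPM, and Gm17041, listed at 0. They matched 293 of the 2643 windows of Cish-204, and the Cish counts were not whole in replicate 1.

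The STAT5 genes and Socs2 were led by models with full coding sequences. Stat5b-201 stood at 16.24 and 17.7 TPM, and Stat5b-202, which shares its coding sequence of 2358 nt, at 1.2 and 0.37 TPM. The noncoding Stat5b-203 stood at 2.05 and 1.81 TPM. Stat5a-202, with 2379 coding nt, stood at 3.63 and 3.86 TPM, ahead of Stat5a-203, with 2391 coding nt, at 2.35 and 1.89 TPM. Stat5a-206, a fragment of 617 nt, stood at 1.22 and 1.29 TPM. Socs2-201 stood at 2.13 and 2.65 TPM and Socs2-202 at 0.98 and 1.49 TPM, both with 594 coding nt. Each shares 221 windows with the pseudogene Gm9847, which was listed at 0, and the Socs2 counts were whole. Pim1 had 1 transcript in the tables, Pim1-201, with 939 coding nt.

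**Figure D3:**
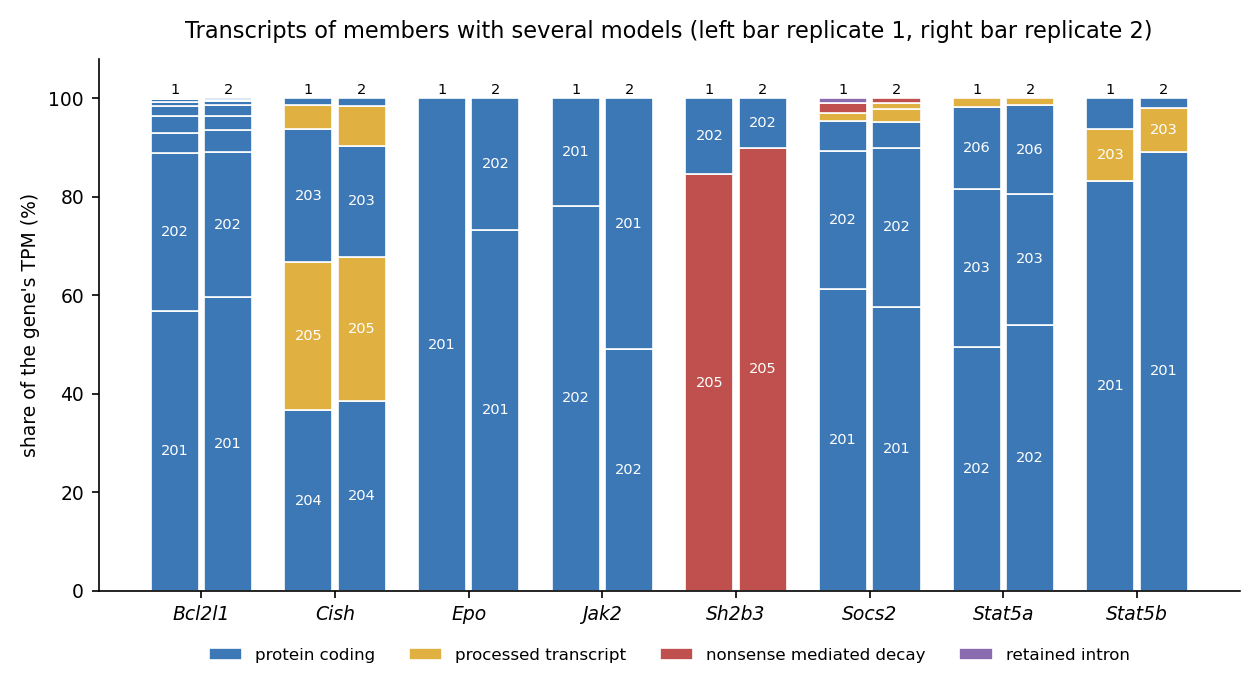
Share of each gene's TPM (vertical axis, percent) held by its transcripts in replicate 1 (left bar) and replicate 2 (right bar), for the 8 members with several models. Colour gives the annotated class, and numbers are the ends of transcript names. Sh2b3-205 (red) held 84.5% and 89.9% of Sh2b3, and the lead within Jak2 passed from Jak2-202 to Jak2-201.

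The replicate ratio of each gene was its TPM + 1 in replicate 2 divided by that in replicate 1, on the log2 scale. It was centred on the median over the 12017 genes that averaged at least 100 expected counts. No member passed 1.5-fold on that scale, 0 of the 9 with that many counts and 0 of all 10, where 1.13% of the 12017 genes did. Adding 1 to the TPM understates differences of low genes. Without it Epo passed 1.5-fold, with a centred log2 ratio of -0.63 on 28.0 and 21.01 expected counts. Of the 12013 genes that averaged at least 100 expected counts and were above 0 TPM in both libraries, 3.01% did. Epo lies below that count, so this share is no background for a gene of its depth. The log2 ratios of the members ran from -0.30 for Epo to 0.31 for Socs2, with 6 above 0 and 4 below. Their median absolute value was 0.13, beside 0.11 over the tested genes. Bcl2l1, Sh2b3 and Jak2 stood at 0.14, 0.16 and 0.13, and Pim1 at -0.13. These were the 4 members whose deposited TPM intervals did not overlap between libraries. The share of all genes without such overlap was not computed, so this count cannot be set against a background. With 1 library against 1, no test was possible.

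**Figure D4:**
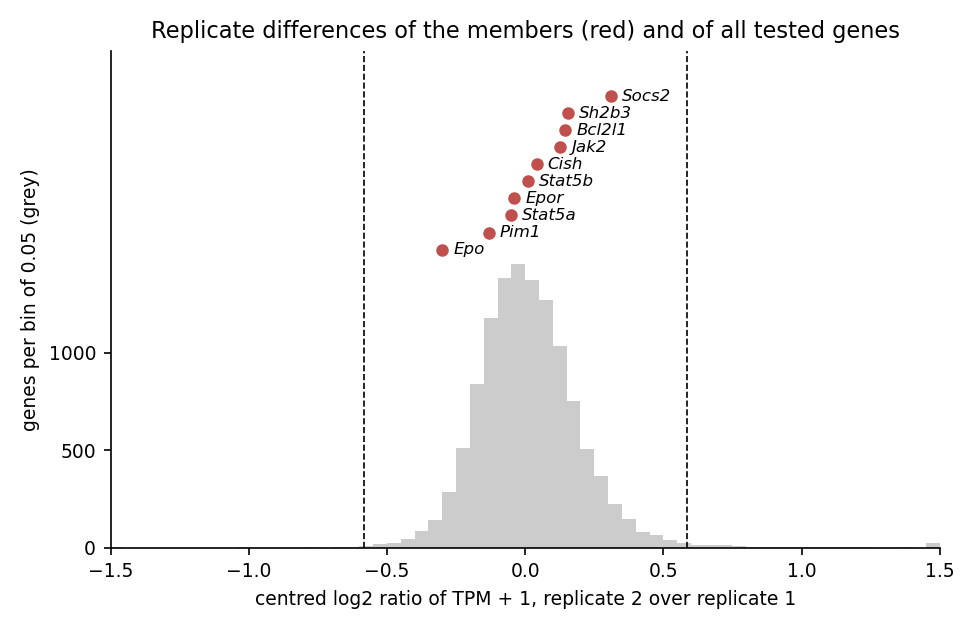
Centred log2 ratio of TPM + 1, replicate 2 over replicate 1 (horizontal axis), as a histogram of 12017 genes (grey, genes beyond the axis in the outermost bins) with the 10 members as red points, stacked only to keep names apart. Dashed lines mark 1.5-fold in either direction. All members lie between -0.30 and 0.31, inside both lines.

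The receptor does not act alone, and the genes around it were described by lists of known roles. The counts of list genes at 1 TPM are to be read beside the 27.9% of all Ensembl genes that reached it. No such share was computed at 10 TPM. Of 7 genes for receptor partners and trafficking, 6 reached 1 TPM in both libraries. Hsp90b1, a chaperone of the secretory route, stood at 278.37 and 261.55 TPM. Tfr2, which encodes a receptor for iron-loaded transferrin that associates with the erythropoietin receptor, stood at 44.39 and 44.76 TPM, and Epor exceeded it 2.12-fold and 2.07-fold. Ephb4, which encodes a receptor proposed to bind the hormone, stood at 6.41 and 7.93 TPM, and the ligase gene Lnx1 was the lowest at 0.01 and 0.12 TPM.

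Of 12 other receptor chains that signal through JAK2, 9 reached 1 TPM and 2 reached 10 TPM, and their median was 3.23 TPM ± 0.50 (SD, n = 2). Epor was above each of them. Ghr, the growth hormone receptor of hepatocytes, stood at 24.41 and 29.14 TPM, and Ifngr2, a chain of the interferon gamma receptor, at 16.24 and 19.14 TPM. Csf2ra, a chain of the GM-CSF receptor, stood at 8.37 and 9.98 TPM, and Il5ra, a chain of the interleukin 5 receptor, was the lowest at 0.07 and 0.01 TPM. Epor exceeded Ghr 3.85-fold and 3.18-fold.

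Adaptors and kinases downstream of the receptor were present in 16 of 17 cases at 1 TPM, with a median of 5.84 TPM ± 0.64. Grb2 and Shc1, adaptors that lead to RAS, stood at 43.88 and 47.1 TPM and at 38.2 and 40.16 TPM. Lyn, a kinase that binds the receptor, stood at 17.78 and 18.94 TPM, and the RAS activator Sos1 was the lowest at 0.63 and 0.7 TPM. All 9 genes of the RAS and MAPK branch reached 1 TPM, with a median of 32.0 TPM ± 1.51. Map2k2, a kinase of that branch, stood at 81.89 and 87.01 TPM, and Braf, a kinase that acts before it, was the lowest at 4.97 and 4.91 TPM. In the PI3K and AKT branch 11 of 12 genes reached 1 TPM, and the median was 7.38 TPM ± 0.49. Akt2, Pdpk1 and Pik3r1 led it, at means of 22.3, 21.4 and 16.1 TPM.

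Phosphatases and ligases that limit the receptor all reached 1 TPM, 13 of 13, with a median of 12.3 TPM ± 0.88 (SD, n = 2). Ptpn6, which encodes SHP-1, the phosphatase that switches the receptor complex off, stood at 33.69 and 33.78 TPM. Ptpn2 and Ptpn1, phosphatases of JAK kinases, stood at 25.93 and 23.64 TPM and at 19.87 and 20.02 TPM. Each of these was above Jak2 and above Sh2b3 in both libraries. The ligase gene Cblb was the lowest at 1.11 and 1.44 TPM.

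Of 15 reported response genes of erythroblasts to the hormone, 12 reached 1 TPM and 5 reached 10 TPM. Tfrc, the transferrin receptor that brings in iron, stood at 293.49 and 277.84 TPM. Ccnd3, a cyclin of erythroblast divisions, stood at 264.15 and 288.89 TPM, and the growth gene Myc at 41.7 and 41.18 TPM. The cytokine gene Osm was the lowest at 0.46 and 0.35 TPM. Of the 13 genes of this list with enough counts, 1 passed 1.5-fold between the libraries, where 1.13% of all tested genes did. It was Egr1, an immediate early gene named here after its values were seen, at 5.67 and 10.05 TPM.

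Known regulators of the hormone and receptor genes were also measured. Of 19 regulators of Epo, 15 reached 1 TPM. Hif3a, a hypoxia-inducible factor gene, stood at 31.65 and 37.79 TPM, Egln2, an oxygen sensor, at 23.29 and 24.59 TPM, and Hnf4a, a hepatocyte factor that acts at the Epo enhancer, at 16.58 and 18.47 TPM. Arnt2, a partner gene of hypoxia-inducible factors, was the lowest at 0.04 and 0.06 TPM. All 7 regulators of Epor reached 1 TPM. Klf1 and Gata1, which encode erythroid transcription factors that recognise CACCC and GATA words, stood at 346.31 and 356.05 TPM and at 89.01 and 93.39 TPM. Lmo2, a bridge in the GATA1 complex, stood at 112.63 and 109.97 TPM, and Sp1, a general factor, was the lowest at 3.95 and 3.6 TPM.

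**Figure D5:**
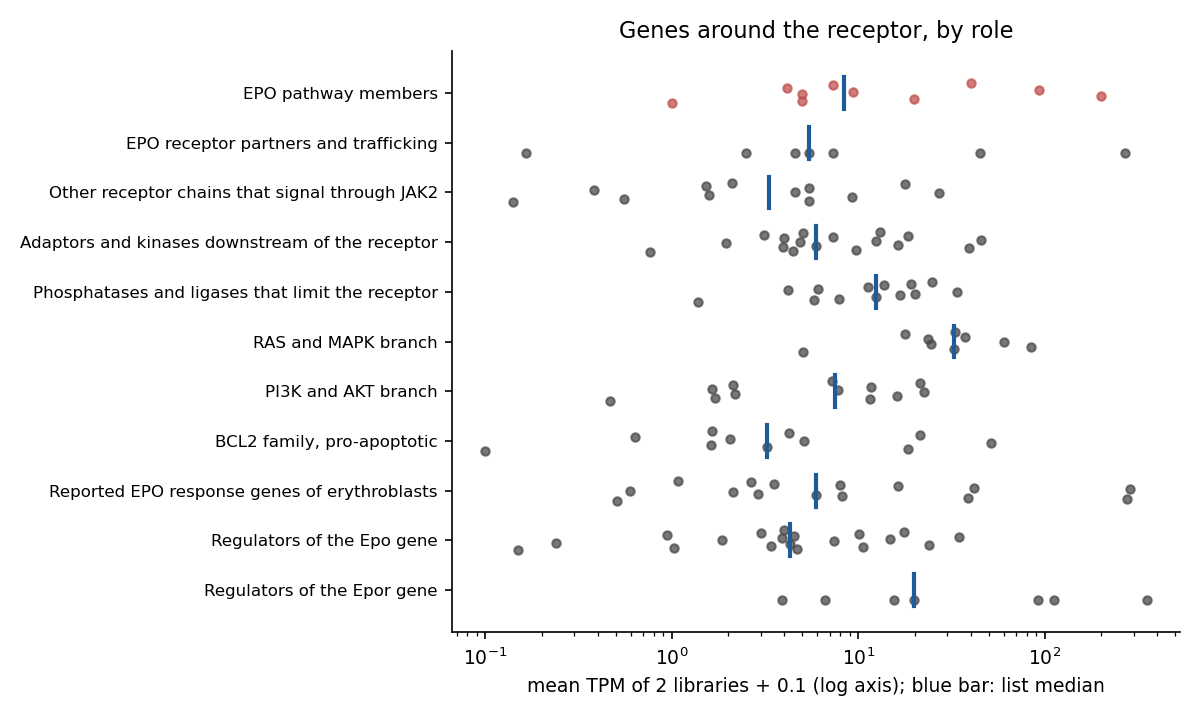
Mean TPM of 2 libraries plus 0.1 (horizontal log axis) of each gene in 11 lists, one list per row, with the list median as a blue bar and the 10 members in red. The medians lie from 3.13 TPM for the pro-apoptotic BCL2 genes to 32.0 TPM for the RAS and MAPK branch, with the members at 8.22 TPM.

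The labelled tissue was checked against marker lists. All 7 hepatocyte markers reached 10 TPM in both libraries, with summed levels of 45093 and 50262 TPM, and so did all 8 erythroblast markers, at 4242 and 4323 TPM. Erythroid progenitor markers reached 1 TPM in 6 of 6 cases, at sums of 536 and 516 TPM. Most of these sums lay on Tfrc and Rhag, at means of 286 and 192 TPM, and Tfrc is also among the response genes above. Cd36, Kit, Myb and Gata2 had means of 26.7, 12.7, 6.8 and 1.7 TPM. Markers of macrophages, megakaryocytes, neutrophils and endothelial cells were also all at 1 TPM or more. Stellate and mesenchymal markers reached 1 TPM in 5 of 7 cases and summed to 120.6 and 154.2 TPM. Of them Des, a stellate cell filament gene named here after its values were seen, passed 1.5-fold between libraries, at 6.34 and 12.16 TPM. Lymphoid markers reached 1 TPM in 5 of 7 cases, with Cd3e, a defining T cell gene, at 0. Of 5 kidney markers none reached 1 TPM, 2 were at 0, and they summed to 0.13 and 0.11 TPM. The part of each cell type in the levels of the members was not tested.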

How the data were processed

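Total RNA of E16.5 mouse liver was sequenced in 2 libraries. The authors deposited gene and transcript tables on mm10 with GENCODE M4, per the text beside the tables. Per the file headers the columns are those of RSEM. Its version and the aligner are not given in the sources used here. Shared reads were divided among transcripts in the deposited expected counts. The deposited TPM covers all rows, spike-ins included. The deposited FPKM entered no result, transcript shares in percent were recomputed in place of the deposited percent columns, and the deposited TPM interval (unit signal) has no stated level. A TPM can lie just outside its interval, as for Socs2 in replicate 1.

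Gene names and models came from GENCODE M21 (GRCm38, called mm10). Epor-201, Pim1-201 and Sh2b3-201 differ there in length from the tables. The effective length in the tables is the length less 99 nt, so sequence sharing was measured in windows of 100 nt. Promoters came from RefSeq (GRCm38.p6). Nothing says that both replicates came from separate matings, so the SD over 2 libraries may be partly technical. The depths above give the precision, with exact Poisson 95% intervals. No p-value was computed. Members and lists were chosen with earlier results of these data known. Named are all members and paralogs with their transcripts at 1 TPM or more, the 3 highest and the lowest gene of other pathway lists, and overlapping or nearest genes that bear on a value. Some genes under this rule are not reported here but remain in list counts, medians and shares.

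Alternatives were other thresholds, pseudocounts and filters, the posterior mean TPM, TPM without spike-ins and globins, TMM (edgeR 4.0.16) and DESeq2 1.42.0 factors on rounded expected counts in R 4.3.3, spike-in scaling, and leaving out either replicate. Scripts ran in python 3.11.15 with pandas 2.3.3 and scipy 1.17.1.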

Additional observations from a re-analysis of the deposited data

How the results depend on the processing

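No paired analysis was possible because the series holds 1 group, so its replicate numbers pair nothing. At 10 TPM in place of 1 TPM, 4 members passed in place of 9. By expected counts in place of TPM, the share of Stat5a in the pair was 19.9% in place of 26.9%. With each replicate alone, 9 to 10 members reached 1 TPM, the share of Stat5a was 26.4% to 27.3%, and 8 to 10 of the 10 members kept their place in the order. Members past 1.5-fold between replicates numbered 0 under each of 8 alternative settings and 1, Epo, without a pseudocount. Scaling to the spike-ins moved the median log2 ratio of the 12017 tested genes by -0.29. It moved the share of these genes past 1.5-fold to 4.32%. TPM without spike-ins and globins raised the level of all 10 members 1.64-fold, and 10 then reached 1 TPM. The posterior mean TPM moved levels by 0.97 to 1.21 times, exchanged Socs2 and Jak2 in the order, and gave 8 members with the same leading transcript in place of 7. Expected counts exchanged Cish and Jak2 in the order. A background at 1 TPM and leading transcripts by expected counts, and the ratio without a pseudocount, were added after seeing the data. Epo, with 28.0 and 21.01 expected counts, is the member that depth limits most.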

Other observations

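The genes nearest to the members covered a wide range of levels. Pop7, which encodes a subunit of RNase P and lies within the annotated span of Epo, stood at 24.71 and 24.72 TPM, and Gigyf1, in the same span on the opposite strand, at 2.39 and 2.64 TPM. Zan and Actl6b, on either side of that span, stood at 0.03 and 0.04 TPM and at 0 and 0.04 TPM. Tpx2, a mitotic spindle gene 16235 nt from Bcl2l1, stood at 50.72 and 49.31 TPM. Cavin1, a caveola gene 71563 nt from Stat5a, stood at 22.89 and 25.92 TPM. Mapkapk3, a stress kinase gene 6148 nt from Cish, stood at 7.37 and 8.61 TPM. Atxn2, which overlaps 99 nt of Sh2b3 exons on the opposite strand, stood at 8.31 and 7.6 TPM, above Sh2b3 in both libraries.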
